A study of Mus musculus with 4 samples.

Results

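Type I interferon-stimulated genes were followed as a set of 46 named genes, listed for their known place in the response to type I interferon and grouped by what their products do. Of these, 44 had a row among the 32285 genes of the deposited matrices, and all 44 passed the filter on low counts that left 13988 genes for the comparison of genotypes. No row carried the symbols Mx1 or Mx2, and these 2 were not analysed here. The cells were microglia, the resident macrophages of the brain, sorted by CD45 and CD11b from 4 mice fed 0.2% cuprizone, a copper chelator that strips myelin, for 5 wk. The 2 PRMT1FL mice carried floxed alleles of Prmt1, which encodes an arginine methyltransferase, and in the 2 PRMT1Cx3cr1-KO mice these alleles were deleted by a tamoxifen-inducible recombinase (CreERT) under control of Cx3cr1. Cx3cr1 is also active in other mononuclear phagocytes, so the deletion is not limited by the promoter to microglia. Both groups were on a C57BL/6 background, were given tamoxifen and ate the diet, so no untreated mouse stands beside them. The labels give an age of 5 to 6 wk at the start of the diet, whereas the study's methods place the tamoxifen injections at that age.

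Type I interferons are secreted proteins that bind a receptor of Ifnar1 and Ifnar2 and act through the kinases Jak1 and Tyk2. Stat2 and Irf9 then act in a complex that binds a DNA element called the interferon-stimulated response element (ISRE) in front of its target genes. Many targets encode proteins that sense viral nucleic acid, stop translation or degrade RNA, and others, such as Irf7 and Usp18, carry the response forward or dampen it. In brain tissue without infection, a small population of microglia with high levels of these transcripts is known from ageing and from loss of myelin.

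The core letters of the ISRE were sought in the promoters of the members, since that complex is known to bind this element. RefSeq promoters (build GRCm38.p6, the mm10 assembly) matched 36 members by symbol. Those not matched were Mx1, Mx2, Usp18, Ifi27l2a, Rtp4, Zbp1, Dhx58, Oas2, Parp14 and Ifi204. The core letters GAAANNGAAA, on either strand and with overlapping matches allowed, lay within the 250 bases before the start site in 16 of the 36 members (44.4%), against 936 of all 27025 genes (3.46%). The letters TTCNNNGAA of the GAS element, known from genes induced by interferon-gamma, lay there in 5 of the 36 (13.9%) and in 8.13% of all genes. The upstream stretches of 5 members with a core are shown, 5′ to 3′ on the strand of the gene, with each core match (or its reverse complement) in capitals. They were chosen for 3 members that were held by few cells (Ifit3, Ifit1 and Rsad2), 1 at a middle value (Isg15) and 1 at a lower one (Oas1a), as described further on.
Ifit3: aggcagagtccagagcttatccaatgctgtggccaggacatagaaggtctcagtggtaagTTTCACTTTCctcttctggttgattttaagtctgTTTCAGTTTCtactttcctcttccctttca
Ifit1: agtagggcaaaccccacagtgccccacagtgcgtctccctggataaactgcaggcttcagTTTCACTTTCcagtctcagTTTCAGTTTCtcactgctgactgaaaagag
Rsad2: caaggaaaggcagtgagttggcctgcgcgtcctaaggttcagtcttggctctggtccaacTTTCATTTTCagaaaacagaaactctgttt
Isg15: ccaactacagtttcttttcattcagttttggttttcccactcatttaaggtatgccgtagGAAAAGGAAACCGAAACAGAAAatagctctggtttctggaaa
Oas1a: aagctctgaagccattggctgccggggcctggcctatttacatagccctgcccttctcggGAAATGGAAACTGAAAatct
The stretch of Ifit3 lies at chr19:34583313-34583436 on the plus strand, and that of Ifit3b at chr19:34607709-34607832 was identical to it in 124 of 124 bases. The stretch of Ifit1 lies at chr19:34640725-34640833 on the plus strand. Those of Rsad2 (chr12:26456543-26456632), Isg15 (chr4:156200855-156200956) and Oas1a (chr5:120907526-120907605) are on the minus strand. Isg15 held 3 overlapping core matches, Ifit3, Ifit1 and Oas1a 2 each, and Rsad2 1. A match is a description of letters in this window and not a measured binding site.

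The 44 genes lay at 31 places in the genome, counting members within 250000 bases of each other as 1 place, and 20 of them shared 7 places. These were the IFIT genes of chromosome 19 (Ifit2, Ifit3, Ifit3b and Ifit1), the p200 genes of chromosome 1 (Ifi209, Ifi204 and Ifi211), the Schlafen genes of chromosome 11 (Slfn5, Slfn8 and Slfn2), the Gbp genes of chromosome 3 (Gbp7, Gbp3 and Gbp2), the pair Rsad2 and Cmpk2 on chromosome 12, and, on chromosome 5, the pair Oasl2 and Oasl1 and the group Oas2, Oas3 and Oas1a. Family members are similar in sequence, and reads come from the 3′ end of the transcript. Of the 50-base words in the last 500 bases of the longest coding transcript, 77.4% of those of Ifi211 were also found in another gene (Ifi205), 63.4% of those of Ifi209 (Ifi214), 56.1% of those of Oas1a (Oas1g), 14.9% of those of Ifit3 (Ifit3b) and 14.0% of those of Ifitm3 (Gm7676). The counts of these 5 genes are uncertain to that extent, and every other member shared less than 6%.

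Counts of unique molecular identifiers (UMIs, each marking 1 captured RNA molecule) were summed in each mouse over 7856 to 11022 cells, or 72768060 to 93010215 UMIs. Libraries shared 31 to 46 barcodes in pairs. Prmt1, the targeted gene, was at 93.3 and 86.1 CPM (UMI counts scaled to a common library total) in PRMT1FL mice 1 and 2 and at 69.97 and 67.7 CPM in PRMT1Cx3cr1-KO mice 1 and 2, a log2 difference of -0.38 with a standard error of 0.07 (edgeR, adjusted p = 0.0638), and its counts do not separate intact from recombined transcripts. The sum of 10 microglial markers was 19414 to 20930 CPM in the 4 mice. Single markers moved in both directions, with log2 fold changes from -0.65 to 0.31. Of the 10, 4 were lower in both PRMT1Cx3cr1-KO mice (28% of all genes) and 3 higher in both (26.3%). By edgeR 1 marker was called, as lower, where 1.12% of all genes were called.

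As a set, interferon-stimulated genes made up a small part of the transcripts of the kept cells, and most of that part came from few genes. The 44 genes together took 4108 and 4424 CPM in PRMT1FL mice 1 and 2. In PRMT1Cx3cr1-KO mice 1 and 2 they took 4753 and 3175 CPM. Both PRMT1FL values thus lay between those of the PRMT1Cx3cr1-KO mice. The mean was 4266 ± 223 (SD, n = 2) in PRMT1FL and 3964 ± 1116 (SD, n = 2) in PRMT1Cx3cr1-KO, or -0.11 as a log2 ratio, and the two-sided exact permutation test gave p = 1, where the smallest value that 2 mice against 2 allow is 0.33. Ifi27l2a, an interferon-induced protein of the mitochondrial membrane, supplied 28.7% of these UMIs (mean of 4 mice). Lgals3bp, a secreted glycoprotein that binds galectin, supplied 16.5%, Bst2 (tetherin, which holds budding virus at the membrane) 12.6% and Ifitm3, which blocks viral entry, 8.67%, so that 4 genes made up 66.4% of the set. UMIs of a 3′ library count molecules whatever their length, so these shares can be compared between genes.

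**Figure D1:**
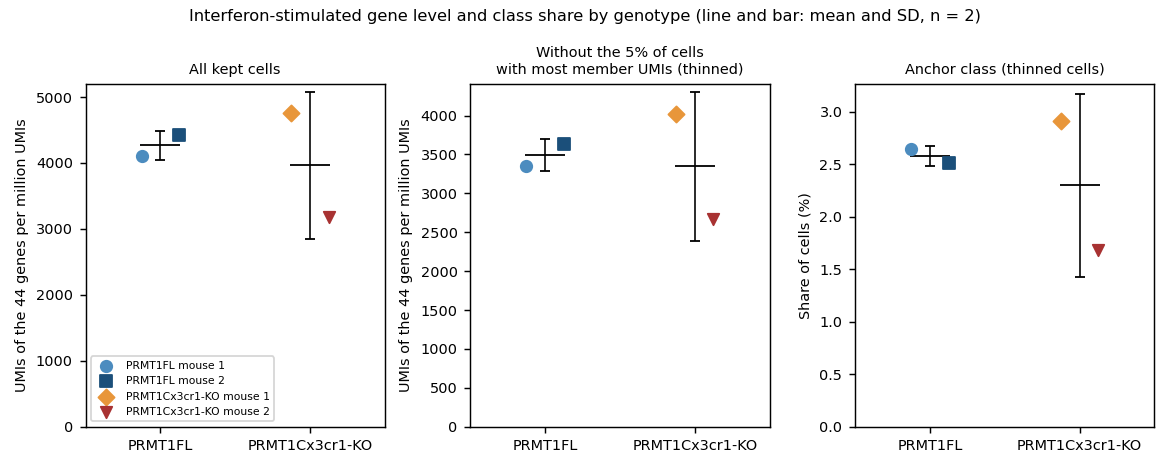
Summed level of the 44 genes in CPM in all kept cells (left) and without the 5% of cells that held most of them (middle, cells thinned to 2000 UMIs), and the share of cells in the anchor class (right, thinned cells), by genotype. Points are mice, and lines with bars are the mean and SD of 2 mice. In all 3 panels PRMT1Cx3cr1-KO mouse 1 was the highest mouse and mouse 2 the lowest.

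Gene by gene, no member passed the test of genotype in the sums over all kept cells. Of 13988 genes, 157 (1.12%) were called by edgeR at an adjusted p of 0.05, and 0 of the 44 members were among them. DESeq2 also called 0 members, beside 5.45% of all genes. At an unadjusted p under 0.05, edgeR listed 7 members (Ifi44, Oas3, Herc6, Oas2, Ifit1, Lgals3bp and Usp18), each with a negative fold change, where 10.5% of all genes were lower at that p. The median log2 fold change was -0.21 over the members and 0.00 over all genes, and 39 of the 44 values were negative. Both PRMT1Cx3cr1-KO mice lay below both PRMT1FL mice for 8 members (these 7 and Ifi35), where 28% of all genes did, and above both for 0 members, where 26.3% of all genes did.

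The fold change of the set rested on 1 mouse of the PRMT1Cx3cr1-KO pair. PRMT1Cx3cr1-KO mouse 2 was the lowest of the 4 mice for 42 of the 44 members, which held for 32.1% of all genes. The exceptions were Bst2 and Samd9l. PRMT1Cx3cr1-KO mouse 1 was the highest for 25 members, which held for 21% of all genes. The log2 ratio of mouse 2 to mouse 1 had a median of -0.69 over the members within PRMT1Cx3cr1-KO (0.00 over all genes), and 43 of 44 members were lower in mouse 2. Within PRMT1FL the same ratio had a median of -0.0046 over the members, with 22 of 44 lower in mouse 2, and its median size was 0.079, against 0.69 within PRMT1Cx3cr1-KO and 0.13 there over all genes. With 1 mouse on each side, the difference between the PRMT1Cx3cr1-KO mice has no test.

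**Figure D2:**
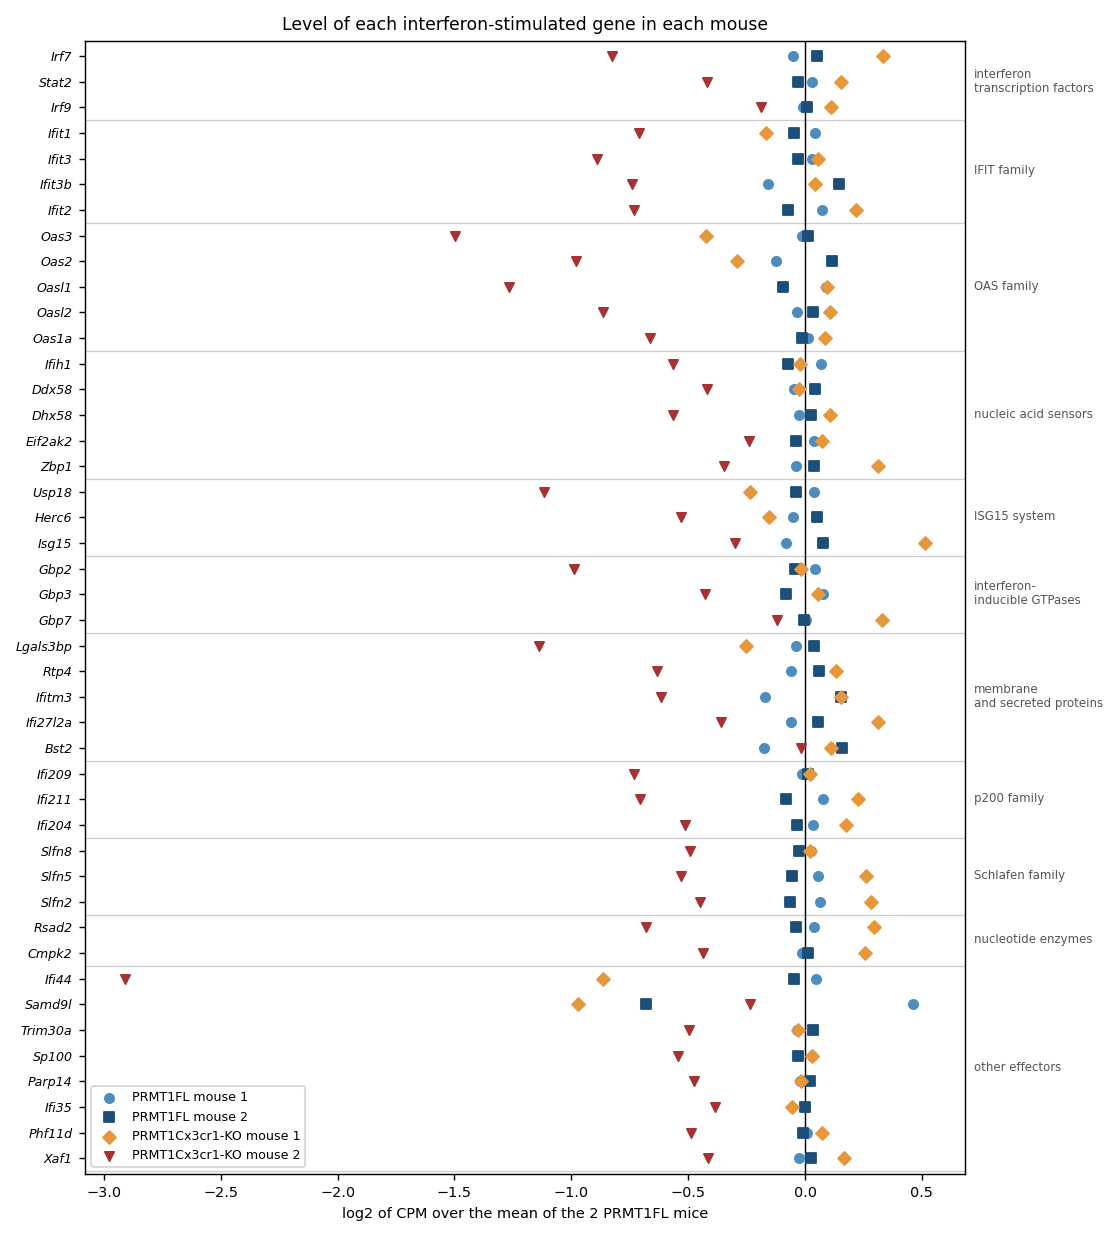
Level of each of the 44 genes in each mouse, as log2 of its CPM over the mean of the 2 PRMT1FL mice, in order of the members' roles. The triangles of PRMT1Cx3cr1-KO mouse 2 lie left of the other 3 mice for 42 genes. The diamonds of PRMT1Cx3cr1-KO mouse 1 lie right of the other 3 mice for 25.

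Leaving out each of these mice gave opposite signs for the median member. Negative in both fits were 14 members, among them Ifi44, Oas3, Lgals3bp and Usp18. Without PRMT1Cx3cr1-KO mouse 1, all 44 members had a negative fold change (median -0.53) and edgeR called 40 of them lower, against 10.9% of all genes called lower in that fit. Irf9, Bst2, Gbp7 and Samd9l were the members not called. Without PRMT1Cx3cr1-KO mouse 2, the median was 0.079 and 30 members were positive. That fit called 8 members higher (Zbp1, Gbp7, Isg15, Irf7, Slfn5, Slfn2, Rsad2 and Ifi27l2a), against 5.67% of all genes, and 5 lower (Ifi44, Oas3, Lgals3bp, Usp18 and Samd9l), against 4.21%. The single remaining PRMT1Cx3cr1-KO mouse is assumed in these fits to vary as the PRMT1FL mice do. Without PRMT1FL mouse 1, and without mouse 2, 0 members were called, in fits that called 4 genes each of all genes tested (0.0279%). When genes with low counts were not filtered, edgeR called 7 members, the same 7 as listed above, beside 8.66% of all genes.

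**Figure D3:**
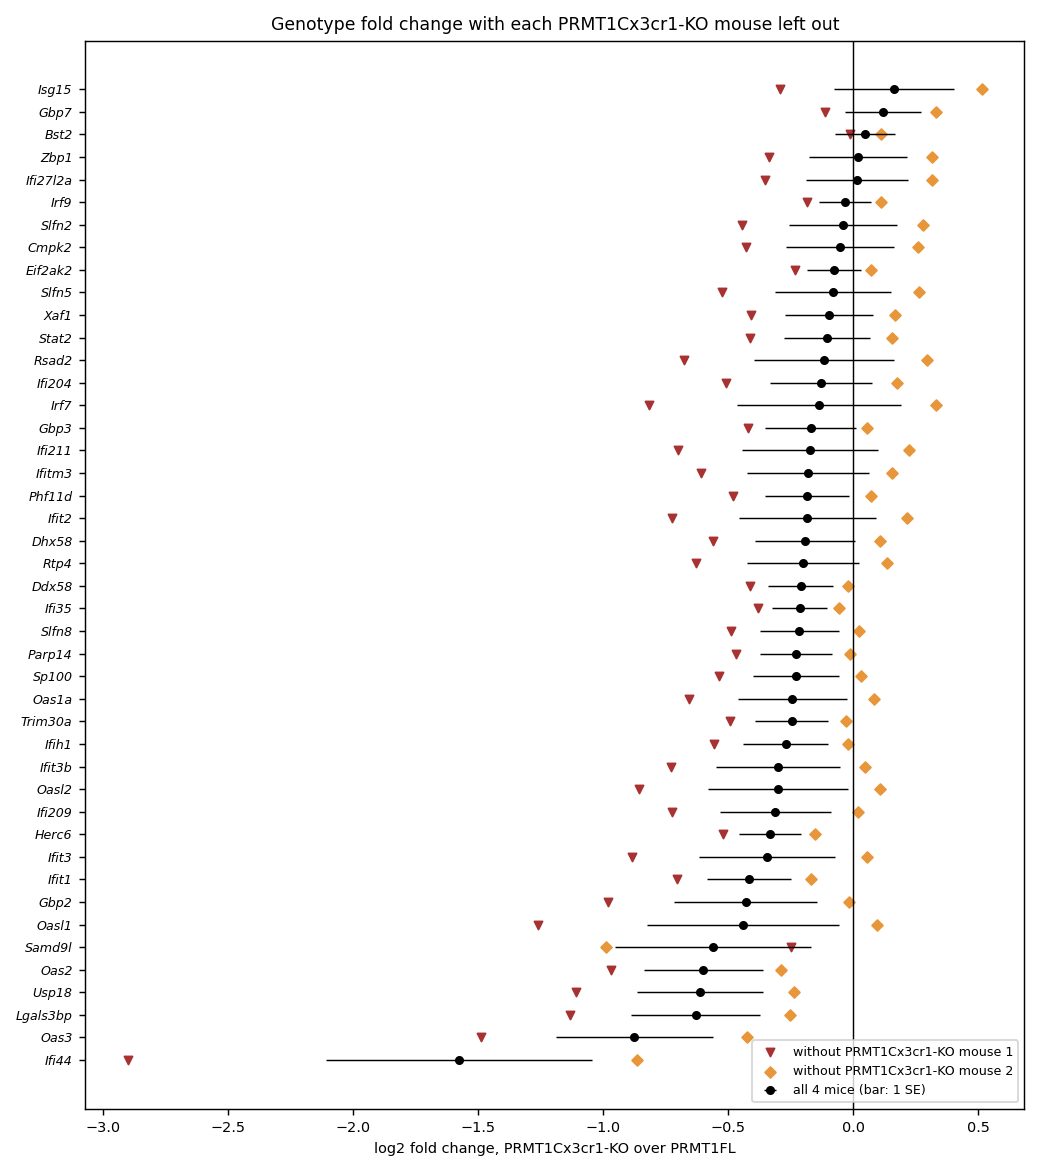
Log2 fold change of each gene between genotypes from edgeR with all 4 mice (black, bars of 1 standard error) and with 1 PRMT1Cx3cr1-KO mouse left out. Without mouse 1 (triangles) all 44 values are below 0, and without mouse 2 (diamonds) 30 are above 0.

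Other lists differed between the same mice. Summed over 11 genes that respond to tissue dissociation, the level was 10177 and 9914 CPM in PRMT1FL and 11501 and 8943 in PRMT1Cx3cr1-KO mice 1 and 2, so it too was highest in PRMT1Cx3cr1-KO mouse 1 and lowest in mouse 2. The 10 markers of border macrophages, which reside at the surfaces of the brain, summed to 35.5 and 37.6 CPM in PRMT1FL and to 47.3 and 114 in PRMT1Cx3cr1-KO mice in the kept cells, none of the 10 being at 0 in all mice. The 8 monocyte markers summed to 3.43, 5.07, 6.44 and 15.8 in the same order. This sum does not describe the whole list. Of the 4 monocyte markers that passed the filter on low counts, 2 had negative fold changes, in a range of -0.95 to 4.49. Cells set aside for monocyte markers went the other way, with 15 and 28 in PRMT1FL and 0 and 4 in PRMT1Cx3cr1-KO mice. The part of these differences in the values of the members was not tested. The 115 to 201 cells per mouse set aside for border macrophage markers held the members at 5153, 6235, 5110 and 3858 CPM, also lowest in PRMT1Cx3cr1-KO mouse 2. Their depth differed, with median UMIs of 3980, 7274, 6381 and 11059. Cells set aside for endothelial markers (47, 20, 26 and 19) were at 5384, 7268, 6439 and 2741 CPM. Those set aside for astrocyte markers (157, 103, 41 and 20) were at 2275, 2241, 3728 and 2254 CPM, not lowest in PRMT1Cx3cr1-KO mouse 2. The remaining types were absent from some mice.

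Among the transcription factors of the response, Irf7, the factor that amplifies interferon production, differed most between the PRMT1Cx3cr1-KO mice. Irf7 was at 65.2 and 69.9 CPM in PRMT1FL and at 85.0 and 38.1 CPM in PRMT1Cx3cr1-KO mice 1 and 2. Its fold change of -0.14 ± 0.33 (log2 ± standard error, as in the values that follow, with edgeR's adjusted p = 0.853) became -0.82 without PRMT1Cx3cr1-KO mouse 1 and 0.33 without mouse 2. Stat2 and Irf9, which act in the complex that binds the ISRE, moved less. Stat2 was at 30.3 and 29.0 CPM in PRMT1FL and at 33.0 and 22.2 CPM in PRMT1Cx3cr1-KO mice. Irf9 was at 41.3 and 41.8 CPM and at 44.9 and 36.4 CPM, and its log2 ratio of -0.30 between the PRMT1Cx3cr1-KO mice was among the smallest of the set.

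The 4 IFIT genes, whose products bind viral RNA and block its translation, had negative fold changes from -0.42 to -0.18, and none was called. Ifit1 was at 17.1 and 16.1 CPM in PRMT1FL and at 14.8 and 10.1 CPM in PRMT1Cx3cr1-KO mice, so the groups did not overlap (-0.42 ± 0.17, adjusted p = 0.235 from edgeR). For Ifit3 the groups overlapped, with 56.9 and 54.5 CPM against 57.9 and 30.0 CPM. Ifit2 showed the same order, with 51.7 and 46.8 CPM against 57.2 and 29.6 CPM. Ifit3b, the near copy of Ifit3, was lower in level at 8.35 and 10.3 CPM against 9.60 and 5.59 CPM.

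The 5 genes of the OAS family, which encode sensors of double-stranded RNA or proteins related to them, had the lowest median fold change of the roles with more than 2 members (-0.44), and 0 of 5 were called. Oas3 was at 4.53 and 4.61 CPM in PRMT1FL and at 3.40 and 1.62 CPM in PRMT1Cx3cr1-KO mice, with no overlap (-0.87 ± 0.31, adjusted p = 0.192 from edgeR). Oas2 was also without overlap, at 3.02 and 3.56 CPM against 2.69 and 1.67 CPM (-0.60 ± 0.24, adjusted p = 0.228). Oasl1, which is related to the OAS enzymes in sequence, had the largest gap between the PRMT1Cx3cr1-KO mice after Ifi44. It was at 10.2 and 8.93 CPM in PRMT1FL and at 10.2 and 3.97 CPM in PRMT1Cx3cr1-KO mice. Oasl2 and Oas1a had fold changes of -0.30 and -0.24.

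Usp18 and Herc6 of the ISG15 system were lower in both PRMT1Cx3cr1-KO mice, as 28% of all genes were, and neither was called. Isg15 was not lower in both. Isg15 is a ubiquitin-like protein, Herc6 a ligase that attaches it and Usp18 the protease that removes it, Usp18 being also a brake on the interferon receptor. Usp18 was at 41.3 and 39.1 CPM in PRMT1FL and at 34.1 and 18.6 CPM in PRMT1Cx3cr1-KO mice (-0.61 ± 0.25, adjusted p = 0.243 from edgeR). Herc6 was at 26.4 and 28.4 CPM and at 24.6 and 19.0 CPM (-0.33 ± 0.12, adjusted p = 0.207). Isg15 was at 52.7 and 58.8 CPM and at 79.5 and 45.2 CPM, so that the PRMT1Cx3cr1-KO mice lay on both sides of the PRMT1FL mice (0.16 ± 0.24, adjusted p = 0.747).

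Lgals3bp, a galectin-binding glycoprotein and the second most abundant member, was the member with the largest difference in counts. It was at 819 and 862 CPM in PRMT1FL and at 705 and 381 CPM in PRMT1Cx3cr1-KO mice. The groups did not overlap (-0.63 ± 0.26, adjusted p = 0.240 from edgeR). The other membrane and secreted proteins overlapped between genotypes. Ifi27l2a was at 1127 and 1221 CPM against 1459 and 914 CPM, and Bst2 at 441 and 557 CPM against 539 and 493 CPM. Ifitm3 was at 340 and 426 CPM against 426 and 250 CPM. Rtp4, a chaperone of receptor transport, was at 55.7 and 60.5 CPM against 63.8 and 37.4 CPM. Of these 5 genes, Bst2 alone was not lowest in PRMT1Cx3cr1-KO mouse 2.

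The 5 sensors of foreign nucleic acid were called 0 times and had fold changes of -0.27 to 0.02. They comprise the RNA sensors Ifih1 (MDA5) and Ddx58 (RIG-I), their relative Dhx58, the kinase Eif2ak2 (PKR), which stops translation, and Zbp1, which triggers cell death. Ifih1 was at 25.3 and 22.9 CPM against 23.8 and 16.3 CPM, and Ddx58 at 18.7 and 19.9 CPM against 18.9 and 14.4 CPM, with fold changes of -0.27 ± 0.17 and -0.21 ± 0.13 (adjusted p = 0.415 and 0.414 from edgeR). All 5 were lowest in PRMT1Cx3cr1-KO mouse 2. The same held for the 3 p200 genes (fold changes of -0.31 to -0.13), whose family includes sensors of DNA, for the 3 Schlafen genes (-0.22 to -0.04), which are known to restrain cell growth and viral translation, for the GTPases Gbp2, Gbp3 and Gbp7 (-0.43 to 0.12), and for Rsad2 (viperin) and Cmpk2, neighbours that act on nucleotides (-0.12 and -0.05). Gbp2 was at 7.03 and 6.63 CPM in PRMT1FL and at 6.76 and 3.44 CPM in PRMT1Cx3cr1-KO mice (-0.43 ± 0.28, adjusted p = 0.439 from edgeR). Ifi209 was at 14.2 and 14.4 CPM against 14.5 and 8.61 CPM (-0.31 ± 0.22, adjusted p = 0.473), and Slfn8 at 37.00 and 35.8 CPM against 36.9 and 25.8 CPM (-0.22 ± 0.16, adjusted p = 0.483). In each of these, 3 mice lay close together and PRMT1Cx3cr1-KO mouse 2 lay below them. Rsad2 was at 37.8 and 35.8 CPM in PRMT1FL and at 45.1 and 22.9 CPM in PRMT1Cx3cr1-KO mice.

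Ifi44, an interferon-induced cytoplasmic protein, had the largest fold change of the set. Ifi44 was at 4.80 and 4.49 CPM in PRMT1FL and at 2.55 and 0.618 CPM in PRMT1Cx3cr1-KO mice (-1.58 ± 0.53, adjusted p = 0.174 from edgeR). It was the member that also differed most between the PRMT1Cx3cr1-KO mice, by -2.05 on the log2 scale. Its gene (ENSMUSG00000028037) spans 151730922 to 151749960 on the minus strand of mouse chromosome 3 (mm10). Ifi35 was at 62.0 and 62.0 CPM against 59.6 and 47.4 CPM (-0.21 ± 0.11, adjusted p = 0.328), the narrowest of the 8 differences without overlap. Samd9l, a growth-restraining protein, broke the pattern, with 6.00 and 2.72 CPM in PRMT1FL mice 1 and 2 and 2.22 and 3.70 CPM in PRMT1Cx3cr1-KO mice. Its PRMT1FL mice were -1.14 apart on the log2 scale, more than those of any other member, and without PRMT1FL mouse 1 its fold change turned from -0.56 to 0.13. The other effectors, Trim30a, Parp14, Sp100, Phf11d and Xaf1, had fold changes of -0.25 to -0.10. Trim30a, which restrains inflammatory signalling, was at 124 and 129.9 CPM against 124 and 89.9 CPM (-0.25 ± 0.15, adjusted p = 0.386 from edgeR), and Parp14, an ADP-ribosyltransferase, at 56.1 and 57.7 CPM against 56.3 and 40.9 CPM (-0.23 ± 0.14, adjusted p = 0.414).

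Within a mouse, transcripts of the set were spread unevenly over cells. Each cell with at least 2000 UMIs was thinned to 2000 so that depth did not enter, which left out 596 to 1055 cells per mouse. The median thinned cell held 6 and 7 UMIs of the 44 genes in PRMT1FL and 8 and 5 in PRMT1Cx3cr1-KO mice, while single cells held up to 90, 102, 94 and 69. Cells with 0 such UMIs made up 1.89, 2.08, 1.80 and 4.85%. The 5% of cells with most of these UMIs held 18.7, 17.9, 16.8 and 19.97% of them. When these cells were taken out, the level in the remaining cells was 3351 and 3637 CPM in PRMT1FL and 4025 and 2674 in PRMT1Cx3cr1-KO mice, with the same order of mice as over all cells. The lower level of PRMT1Cx3cr1-KO mouse 2 was thus also present outside the cells with most of these transcripts.

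**Figure D4:**
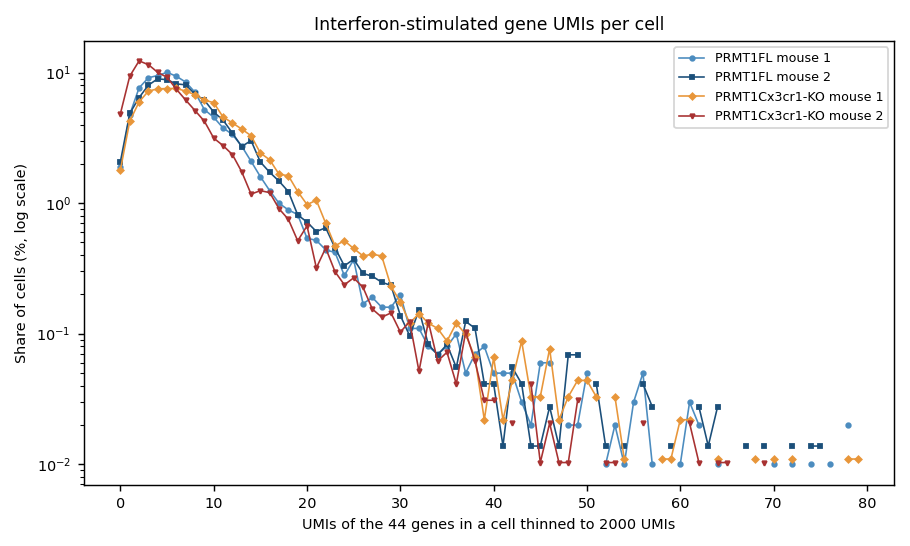
Share of cells (log scale) by the number of UMIs of the 44 genes among 2000 UMIs per cell, for each mouse, up to 79. The curves fall from a peak below 10 into a long tail in all 4 mice, and that of PRMT1Cx3cr1-KO mouse 2 peaks at the lowest number.

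Members differed widely in how far they shared these cells. For each gene, its share of thinned UMIs in the 5% of cells richest in UMIs of the other members was taken, where an even spread gives 5%. Over 43 members with at least 200 thinned UMIs (all but Ifi44) the median was 21.6%, and over 9951 other genes it was 4.78% with a 99th percentile of 11.1%. Of the 43 members, 39 lay above that percentile. The highest were Ifit3b (53.5%, 49.4 to 60.2 over the mice), Rsad2 (52.7%, 46.5 to 60.0), Ifit1 (51.0%, 42.6 to 59.7), Cmpk2 (50.8%, 44.4 to 58.9), Ifit3 (48.5%, 42.2 to 53.8) and Ifit2 (46.7%, 38.9 to 50). In 3 mice 5 of these 6 genes were among the 6 highest, and in PRMT1Cx3cr1-KO mouse 2 it was 4.

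At the other end stood Irf9 and several of the most abundant members. Irf9 was the lowest in every mouse, at 6.08% (4.97 to 7.41). Next came Lgals3bp (7.86%, 6.72 to 9.84), Ifi27l2a (9.41%, 8.64 to 10.97), Bst2 (10.99%, 10.2 to 11.5), Ifi35 (11.5%, 10.2 to 13.2) and Eif2ak2 (12.6%, 10.9 to 15.0). Lgals3bp, Ifi27l2a and Bst2 were detected in 74.1 to 85.1%, 76.0 to 82.5% and 78.0 to 82.6% of cells without thinning, while Ifit1 was detected in 4.88 to 6.75% and Rsad2 in 7.38 to 13.5%. The median over the 16 members with the ISRE core letters was 26.9% (10.99 to 53.5%). Over the 20 members with a promoter but without these letters it was 20.4% (6.08 to 50.8%), here with Ifi44 included despite its low count. The ranges of these groups overlapped almost fully.

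**Figure D5:**
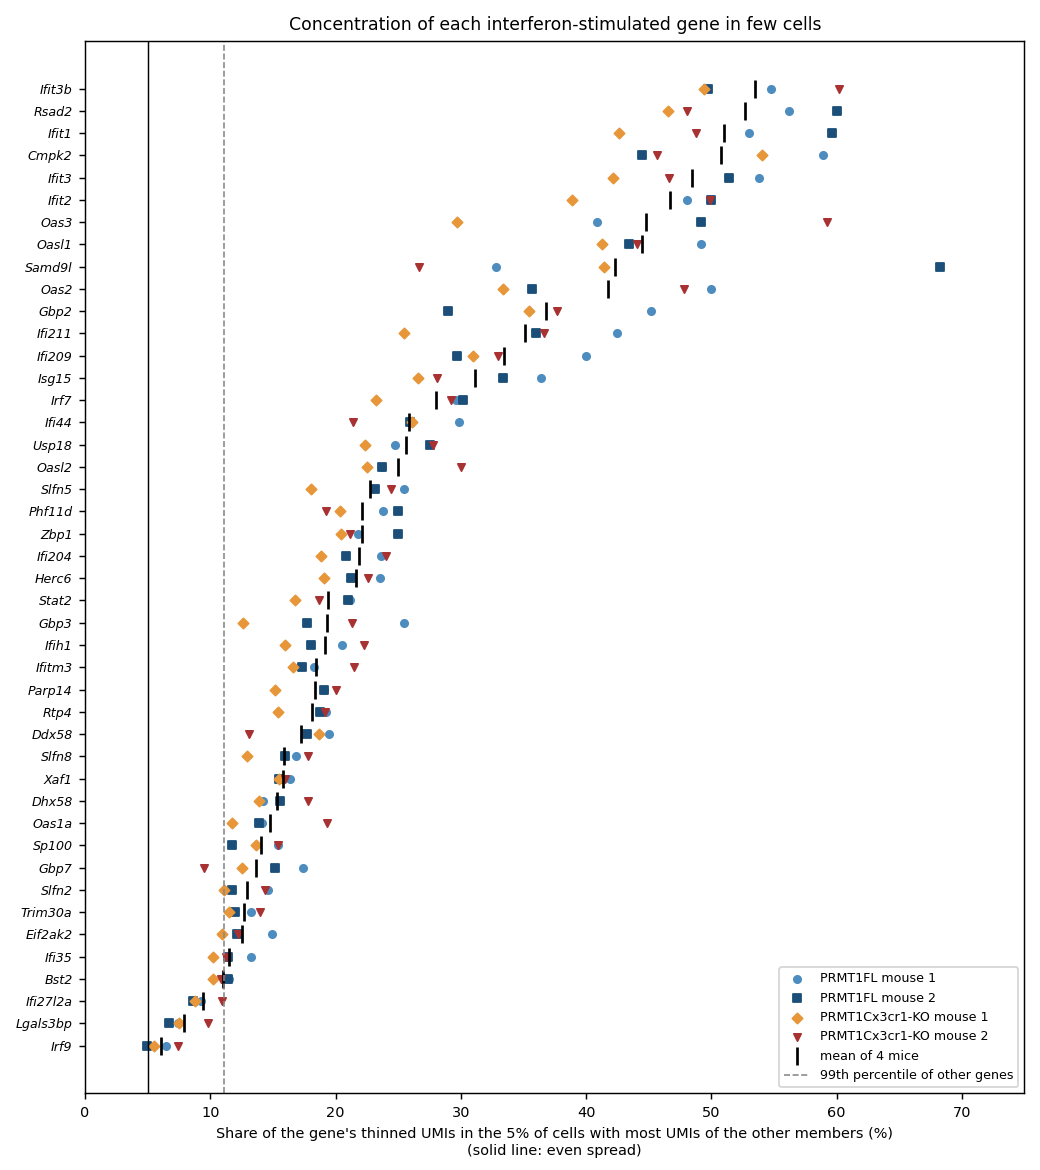
Share of each gene's UMIs that lay in the 5% of cells with most UMIs of the other members, in cells thinned to 2000 UMIs. Points are mice, ticks the mean of 4 mice, the solid line an even spread (5%) and the dashed line the 99th percentile of other genes (11.1%); Irf9 sits near the even spread, and IFIT genes, Rsad2 and Cmpk2 lie near 50%.

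Cell-to-cell variation, taken by another measure, gave an order that was alike for some members and not for others. The Pearson dispersion compares the variance of a gene's counts over cells with that of random sampling from a constant level, which gives 1. It was highest for Rsad2 (12.7, 9.34 to 17.2 over the mice), where genes at a like mean count had a median of 1.13. Ifi27l2a followed with 10.5 (9.77 to 11.3) against 2.41 at its level, while 9.41% of its UMIs lay in the richest 5% of cells. Ifit3 (8.37), Ifit2 (6.89), Ifitm3 (5.57) and Ifit1 (4.24) came next. Oas1a, at 1.08, was the only one of 44 members below the median of genes at its level, and Irf9 was at 1.23 against 1.13. Above the 95th percentile of genes at a like level stood 21 of the 44, among them Rsad2 and Ifit3, while Ifi27l2a (95th percentile 17.4) and Ifitm3 (7.45) were below it.

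To ask whether the whole set rises in the cells that carry the IFIT genes, cells were called anchor class when they held UMIs of at least 2 of Ifit1, Ifit2, Ifit3, Ifit3b and Rsad2 and 3 or more in all. After thinning this class made up 2.64 and 2.51% of cells in PRMT1FL and 2.91 and 1.68% in PRMT1Cx3cr1-KO mice. The mean was 2.57% ± 0.0956 (SD, n = 2) in PRMT1FL and 2.30% ± 0.874 (SD, n = 2) in PRMT1Cx3cr1-KO, -0.17 as a log2 ratio, with p = 1 in the two-sided exact permutation test. Without thinning the shares were 8.34, 9.16, 11.2 and 6.23%, and median UMIs per cell were then 10728 to 12913 in the class and 5838 to 6710 outside it. The class is a range and not a cell type, since 415 to 670 cells per mouse held 2 anchor UMIs and stood just outside it, and 162 to 300 held 3 and stood just inside.

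Of the 39 members that did not define the class, 38 were higher in its cells than in other cells in all 4 mice, with a median log2 ratio of 2.69. The same count was not taken over all genes, so no share stands beside it. Isg15 was at 577, 580, 617 and 457 CPM of thinned UMIs in the class and at 35.1, 41.6, 59.9 and 40.3 CPM outside it. Cmpk2 had the largest ratio of these 39, at a mean of 5.06 (4.63 to 5.53 over the mice). Irf9 was the exception, with a mean of 0.23 (-0.06 to 0.90). Ifi27l2a (0.71), Lgals3bp (0.61) and Bst2 (1.02) were also high outside the class.

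Comparing genotypes inside the class, with the class and its UMIs taken before thinning, edgeR called 3 members, all lower in PRMT1Cx3cr1-KO cells, where 1.06% of 11336 genes were called. Ifi44 was at 13.9 and 14.3 CPM in the class cells of PRMT1FL and at 5.88 and 3.12 CPM in those of PRMT1Cx3cr1-KO mice (-1.58 ± 0.23, adjusted p = 0.0109 from edgeR), from 155, 151, 89 and 30 UMIs. Oas3, the RNA sensor, was at 20.97 and 18.7 CPM against 10.4 and 8.62 CPM (-1.05 ± 0.14, adjusted p = 0.00722). Usp18, the brake on the receptor, was at 137 and 114 CPM against 85.1 and 75.5 CPM (-0.64 ± 0.11, adjusted p = 0.0185). The genotypes did not overlap for these 3 genes in these sums. In the smaller class of thinned cells they overlapped for Ifi44, at 16.98 and 32.97 CPM against 18.8 and 3.07 CPM from 9, 12, 10 and 1 UMIs, and for Oas3, at 26.4 and 41.2 CPM against 30.1 and 21.5 CPM from 14, 15, 16 and 7 UMIs. Usp18 was there at 326 and 321 CPM against 246 and 190.2 CPM, without overlap. At an unadjusted p under 0.05, 26 of 44 members were listed inside the class, against 12.6% of all genes. Ifit1, Ifit2, Ifit3 and Ifit3b, which helped define the class, are among the 26, so this count is not independent of that choice.

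With 1 mouse left out, an alternative chosen after seeing the data, the number of members called inside the class was 17 without PRMT1Cx3cr1-KO mouse 1 (8.01% of all genes), 10 without mouse 2 (4.04%), 2 without PRMT1FL mouse 1 (0.43%), where Usp18 was not called, and 4 without PRMT1FL mouse 2 (0.712%). All these members were lower. In the cells outside the class 0 of 44 members were called, with 1.35% of 13805 genes called, 4 members at an unadjusted p under 0.05 (20.9% of all genes) and a median of -0.18. With the replicate number of the labels as a block, 5 members were called there (Ifi44, Oas3, Herc6, Usp18 and Lgals3bp), beside 11.5% of all genes. A test of whether the genotype effect differed between the class and the other cells called 0 of 44 members (0.27% of 13326 genes), and 8 members were listed at an unadjusted p under 0.05, against 6.93% of all genes. The test within the class covers cells chosen by 5 of the members, so the values of those 5 are not independent of the choice. Of the 39 other members, 38 were also higher in the class, with Ifi44, Oas3 and Usp18 among them. The class share before thinning differed between mice (8.34, 9.16, 11.2 and 6.23%). Levels of these members inside the class may therefore depend on the choice too, which was not tested.

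The genes upstream of the set were measured alongside. Of the 18 genes of type I interferons, only Ifnb1, Ifnk and Ifnz had any UMI. Ifnb1 had 1 UMI and 20 UMIs in the PRMT1FL pair and 28 and 8 in the PRMT1Cx3cr1-KO pair, and Ifnk and Ifnz together had at most 2 in a mouse. For the other 15 genes, a count of 0 allows up to 0.0323 to 0.0412 CPM per mouse (3 counts, counting error only). The 7 receptors and kinases were called 0 times and lay close together in all mice. Ifnar1 was at 50.9 and 53.1 CPM in PRMT1FL and at 49.7 and 45.6 CPM in PRMT1Cx3cr1-KO mice, and Ifnar2 at 226 and 240 CPM against 225 and 223 CPM. Their UMIs were not concentrated in the 5% of cells richest in the set, which held 5.14% and 4.69% of them.

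Of the signal transducers and other IRFs 0 of 8 were called, with 5 lower in both PRMT1Cx3cr1-KO mice, where 28% of all genes were. Irf1 was at 60.4 and 62.4 CPM in PRMT1FL and at 102 and 51.3 CPM in PRMT1Cx3cr1-KO mice, again highest in PRMT1Cx3cr1-KO mouse 1 and lowest in mouse 2. Among 15 tested genes of the pathways that induce interferon, 7 tested negative regulators, 14 tested genes known mainly from interferon-gamma and 42 further interferon-inducible genes, edgeR called 0. Cxcl9, a chemokine of T cells induced by interferon-gamma, came to 21.0 and 21.2 CPM against 13.9 and 6.05 CPM (-1.09 ± 0.34, adjusted p = 0.148 from edgeR). Ciita, the master regulator of MHC class II genes, was at 1.35 and 1.76 CPM against 0.467 and 0.186 CPM (-2.28 ± 0.40, adjusted p = 0.0628 from edgeR). The median fold change of the interferon-gamma list was -0.40, with 9 of 14 genes lower in both PRMT1Cx3cr1-KO mice, beside the 28% of all genes.

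Outside the set, the genes most confined to the same cells were mostly known interferon targets. The GTPase gene Iigp1 had 68.1% of its UMIs in the richest 5% of cells (65.0 to 74.1 over the mice), more than any member. The p200 genes Ifi213 (44.1%), Ifi206 (43.5%), Ifi203 (37.5%) and Mndal (32.7%), the chemokine gene Cxcl9 (36.3%) and Gm4951 (32.4%) followed. These 7 stood on the lists of interferon genes, which were chosen with earlier results of these data known. A530064D06Rik stood on none and had 64.3 and 100% in PRMT1FL and 9.57 and 4.04% in PRMT1Cx3cr1-KO mice. Its mean of 44.5% thus describes no mouse. These shares rest on thinned UMIs, of which the gene had 355 over all mice together. Before thinning it had 60 and 43 UMIs in PRMT1FL, against 370 and 796 in PRMT1Cx3cr1-KO mice. The 60 and 43 are thus an upper limit on the thinned UMIs behind the PRMT1FL shares. With so few molecules, the shares cannot be compared between genotypes. A530064D06Rik was at 0.701 and 0.606 CPM in PRMT1FL and at 4.54 and 8.20 CPM in PRMT1Cx3cr1-KO mice. It was called higher by edgeR (3.28 ± 0.32, adjusted p = 0.0193). Iigp1 was at 8.32 and 7.89 CPM in PRMT1FL and at 9.76 and 2.67 CPM in PRMT1Cx3cr1-KO mice, the order seen for most members. Ifi213, Ifi206, Cxcl9 and Gm4951 were also lowest in PRMT1Cx3cr1-KO mouse 2. Ifi203 and Mndal went the other way and were highest in that mouse. Ifi203 was at 0.934 and 1.80 CPM in PRMT1FL against 1.57 and 4.28 CPM, and Mndal at 1.20 and 1.62 CPM against 1.74 and 4.93 CPM.

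Finally, thinned cells of the same mouse were divided by whether they held a UMI of each of 4 genes that mark other states. Gdf15 marks a stress response, and cells with its UMI held less of the set in all 4 mice, by -0.22 and -0.25 on the log2 scale in PRMT1FL and by -0.54 and -0.37 in PRMT1Cx3cr1-KO mice. Cells with a UMI of Itgax (CD11c) were lower by a small amount in all 4, at -0.11 to -0.08. Members higher in them numbered 12 and 13 of 44 in PRMT1FL, and 15 of 44 and 19 of 43 in PRMT1Cx3cr1-KO mice. Of all genes with at least 50 thinned UMIs, 31.6, 34.5, 37.0 and 42.1% were higher there in the same order. Most genes were thus lower in these cells, as most members were. For Cd74, the invariant chain of MHC class II, the ratio was -0.01 and -0.02 in PRMT1FL and 0.13 and 0.41 in PRMT1Cx3cr1-KO mice, where cells with its UMI made up 21.4 and 9.42% against 32.0 and 36.4% in PRMT1FL. Of the 44 members, 27 and 23 were higher in the cells with Cd74 in PRMT1FL and 34 and 40 in PRMT1Cx3cr1-KO mice, while over the 4 mice 33.0 to 37.7% of all genes with at least 50 thinned UMIs were higher. For Mki67, a marker of dividing cells, the summed ratio was 0.22, 0.48, 0.09 and -0.01. The median member was at -0.06, 0.12, -0.16 and -0.31, while Ifi27l2a, the most abundant member, was at 0.73, 1.09, 0.52 and 0.42. The difference between genotypes gave p = 0.33 for each of the 4 genes in the two-sided exact permutation test, the smallest it can give.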

How the data were processed

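The authors used Cell Ranger 3.1.0 and the mm10 genome to turn 4 droplet libraries (3′ chemistry, 1 per mouse) into raw UMI counts per gene and barcode, which they deposited. Submitters' notes also name Seurat 3.2.0 and Scanpy 1.5.2. Kept barcodes had 200 to 6000 genes and a mitochondrial share of up to 10%, and cells with UMIs of 3 or more different markers of 1 other cell type were set aside, which kept 96.2 to 98.2% of these cells. Doublets were not removed. The libraries held 76943248 to 99559644 UMIs. Counts were summed per mouse and tested with edgeR 4.0.16 (quasi-likelihood F test, TMM, filterByExpr, Benjamini-Hochberg adjustment over all genes tested), with standard errors from the fold change and F. DESeq2 1.42.0 was an alternative. CPM are TMM-scaled in the comparison of genotypes and plain elsewhere. The fit was run on simulated counts with the same fixed dispersion for every gene. That setting was not taken from the spread of the members, so it does not show how often differences in them would be called. Per-cell measures used cells thinned to 2000 UMIs (Python 3.11.15). Promoters came from RefSeq (GRCm38.p6) and coordinates from GENCODE vM21. With 2 mice per group, the mouse was the replicate. The replicate numbers do not come with a stated pairing. Members and lists were chosen with earlier results of these data known. Named by rule: the 16 members with the smallest p, the 6 highest and 6 lowest by concentration in few cells, up to 8 other genes most concentrated there, and pathway genes that a result turned on; values of further members serve to cover each role. Alternatives were another normalization, test, filter, cell selection, class limit and depth, a replicate block, and each mouse left out.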

Additional observations from a re-analysis of the deposited data

How the results depend on the processing

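The number of members called by genotype was 0 with all mice, in a fit that called 1.12% of all genes. It stayed 0 under DESeq2's size factors (1.09% of all genes called) or Wald test (5.45%) and at a 5% mitochondrial limit (1.35%). With other cell types included (5.08%) it was 0 too. The same held without cells with 2 or more markers of another type (0.35%). Leaving out the 10% of cells with the most genes (0.955%) also gave 0. Without the filter on low counts the number was 7 (8.66%). Leaving out single mice gave 0 to 40 members, 40 without PRMT1Cx3cr1-KO mouse 1 and 13 without mouse 2. The median fold change ranged from -0.53 to 0.079 over these 4 fits. Outside the anchor class the same fits called 0 to 33 members, with medians from -0.46 to 0.12. Without PRMT1Cx3cr1-KO mouse 1 the number was 33, all lower, in a fit that called 17.0% of all genes. Without mouse 2 it was 4, in a fit that called 5.07% of all genes. Of these 4, Ifi44 was lower and Irf7, Isg15 and Slfn5 were higher. Inside the class 2 to 17 members were called with 1 mouse left out, against 3 with all mice, an alternative added after seeing the data. The replicate numbers of the labels share only a number: deviations of same-numbered mice had a correlation of -0.0078. With a replicate block 0 members were called over all cells (median -0.24, 469 genes against 157) and 5 outside the class (1586 genes against 187). The log2 ratio of the level of the set lay between -0.43 and 0.16 and that of the class share between -0.62 and 0.18 with 1 mouse left out; the values above 0 came without PRMT1Cx3cr1-KO mouse 2. Including other cell types gave -0.36 for the class share, from another random draw of thinned UMIs. The median concentration was 29.5% in the richest 10% of cells, where an even spread gives 10%, and 18.9% with cells thinned to 1000 UMIs. With cells ranked without the 4 most abundant members, an alternative chosen after seeing the data, it was 23.3%. Among the 16 members with the smallest p, 3 changed direction. With 1 mouse left out, Samd9l (-0.56 with all mice) ranged from -1.01 to 0.13, Ifi209 (-0.31) from -0.72 to 0.021 and Slfn8 (-0.22) from -0.49 to 0.022, positive without PRMT1FL mouse 1 for Samd9l and without PRMT1Cx3cr1-KO mouse 2 for the other two. DESeq2 called 762 genes and the fit without the filter 1771. The cause of these changes was not tested.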
